A study of Cavia porcellus with 44 samples.

Results

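Genes of lipoprotein and lipid transport were followed together with the ATP-binding cassette (ABC) transporters in the liver of guinea pigs on 6 diets. Members were chosen by their symbol in the table of variance-stabilized values. They were the ABC families A to G, the apolipoproteins, the low density lipoprotein receptor related proteins (LRP), the STARD and OSBP lipid transfer proteins, the lipases LIPA, LIPC, LIPE, LIPG and LIPH, the SCARB and NPC genes, and PLTP, LCAT, CETP, LPL, MTTP and VLDLR where present. The pattern matched 56 of 7747 symbols, 1 of which (APOBEC2, no apolipoprotein) was left out, and symbols with equal counts in every animal were taken once, which left 52 members. ABCF2 had the same counts as ABCF2-H2BE1, and APOC1 the same as APOC2 and APOC4-APOC2, so the genes within each of these sets cannot be told apart. ABCB8 likewise shared its counts with ASIC3, and LRP2BP with UFSP2, both outside the families. The human symbol ABCB1 stands on 3 entries, given here as ABCB1, ABCB1.1 and ABCB1.2, and which guinea pig gene each of them is, and how reads were divided between them, is not stated. ABCA1, ABCG5, ABCG8, ABCB11, ABCB4, ABCC2, APOA1, APOA4, APOA5, APOB, APOC3, LRP1, SCARB1, LIPC, PLTP, MTTP and NPC2 were not analysed here.

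The animals were 44 female Hartley guinea pigs, each 1 liver library taken at week 32. LFH (n = 8) ate a feed with 3.8% fat and 2000 mg vitamin C (vitC) per kg feed all the time, with no added cholesterol or sucrose. HFH (n = 8) ate a feed with 20% fat, 15% sucrose, 0.35% cholesterol and 2000 mg vitC/kg all the time. The other 4 groups all spent 16 weeks on the high fat feed with 50 mg vitC/kg before a second period of 16 weeks. For HFL/HFL (n = 10) nothing changed in the second period, and for HFL/HFH (n = 6) only the vitC level rose, to 2000 mg/kg. The low fat feed, 3.8% fat, was given in that period to HFL/LFL (n = 6) at 50 mg vitC/kg and to HFL/LFH (n = 6) at 2000 mg vitC/kg. The study pair-fed each low fat group to its high fat counterpart. The guinea pig, like humans, cannot make vitC and carries much of its plasma cholesterol in low density lipoprotein. Fat, sucrose and cholesterol changed together between the feeds and cannot be told apart. The feeds also differed in fibre, starch, grain and protein sources and energy content. Earlier fat and earlier vitC cannot be told apart either where a changed group is set against a lifelong one. HFL/LFL and HFL/HFL also differ from LFH and HFH in the vitC level of the second period.

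The liver assembles lipoproteins around apolipoproteins, secretes them with triglyceride and cholesterol, and takes their remnants back through receptors that recognise apolipoprotein E. Lipases and plasma enzymes remodel the particles in between, and inside the cell the STARD, OSBP and NPC proteins carry sterols and phospholipids between membranes. ABC transporters use ATP to move lipids, bile acids, drugs and peptides across membranes, and cells loaded with cholesterol are known to raise the sterol exporters among them through the liver X receptors, while sterol synthesis and several sterol carriers are controlled by the sterol regulatory element binding proteins.

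Total counts per library ranged from 21133807 to 35427724 (median 25652393), and 4.13% to 10.1% of them fell on the members. All 52 members were among the 7750 symbols tested. CPM are counts scaled to an equal effective library size, which is the total count times a normalization factor (TMM in edgeR). The factor was 0.715 to 1.05 in the low fat groups and 1.04 to 1.38 in the high fat groups. Levels and fold changes between feeds therefore depend on this factor, and how they would read without such a factor was not tested. A count of 3 equals 0.0626 to 0.17 CPM in these libraries, which is a floor for counting error alone. Of 10 hepatocyte markers 3 were tested (ALB, SERPINA1, ASGR1), and each had counts in all 44 animals. Their summed level was 68683 to 215398 CPM in the 3 low fat groups and 20529 to 87961 CPM in the 3 high fat groups. The 3 of 4 cholangiocyte markers tested (KRT19, KRT7, EPCAM) summed to 105 to 386 CPM on low fat feed and 599 to 1269 CPM on high fat feed, without overlap. For 8 of 14 macrophage markers the sums were 617 to 2006 CPM on low fat feed and 645 to 1995 CPM on high fat feed, although 4 of these 8 were called lower on low fat feed in each feed comparison and 2, 1 and 1 higher. Endothelial markers (4 of 5 tested) summed to 478 to 762.4 CPM against 354 to 559 CPM, T cell markers (6 of 6) to 80.2 to 241 CPM against 56.8 to 146 CPM, stellate cell markers (3 of 8) to 177 to 569 CPM against 360.05 to 1309 CPM and red cell markers (2 of 3) to 87.4 to 1741 CPM against 202 to 12958 CPM. B cell markers (4 of 4) summed to 350.2 to 576 CPM against 304 to 599 CPM, and neutrophil markers (4 of 4) to 3.15 to 42.5 CPM against 4.28 to 51 CPM. The T cell sum was mostly CD3E (mean 109 CPM). In the 3 feed comparisons, 1, 1 and 0 T cell markers were called higher on low fat feed and 1, 1 and 0 lower, and 1, 1 and 3 endothelial markers higher and 1, 0 and 0 lower. B cell markers were called higher for 1 in each and lower for 0, and neutrophil markers lower for 0, 2 and 1 and higher for 0. Hepatocyte markers were called higher for 3, 1 and 2 and lower for 0. In each comparison 3 cholangiocyte, 2 stellate cell and 2 red cell markers were called lower and 0 higher. The part of these cell types in the results below was not tested, and in bulk liver RNA fewer cells of a type and less RNA per cell cannot be told apart.

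Feed was set against feed in 3 pairs of groups that share no animals: LFH against HFH (lifelong), HFL/LFH against HFL/HFH (after the change, high vitC) and HFL/LFL against HFL/HFL (after the change, low vitC). Values of the 3 comparisons are given in this order below, always as low fat over high fat feed on the log2 scale. Between LFH and HFH, 34 members (65.4%) had an adjusted p under 0.05 in edgeR's quasi-likelihood test, where 49.3% of all genes tested did. Of these members 13 were higher in LFH (21.7% of all genes were) and 21 were lower (27.7%). The high vitC pair after the change gave 25 members (48.1%, against 35.9% of all genes), 11 higher (16.5% of all genes) and 14 lower (19.4%). The low vitC pair gave 34 (65.4%, against 37.8%), 15 higher (18.1% of all genes) and 19 lower (19.7%). The CPM of the groups did not overlap for 15, 19 and 13 members in these comparisons, and for 16.9%, 16.2% and 9.9% of all genes. The median absolute log2 fold change was 0.74, 0.51 and 0.53 over the members and 0.44, 0.39 and 0.37 over all genes, and the signed median was -0.03, -0.05 and -0.15 beside -0.06, -0.01 and -0.03. All 3 comparisons called 23 members in the same direction, 9 higher and 14 lower on low fat feed, where 23.9% of all genes were called so (10.5% higher and 13.4% lower). The test called 11 members in none of the 3 and 1, APOC1, in opposite directions.

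**Figure D1:**
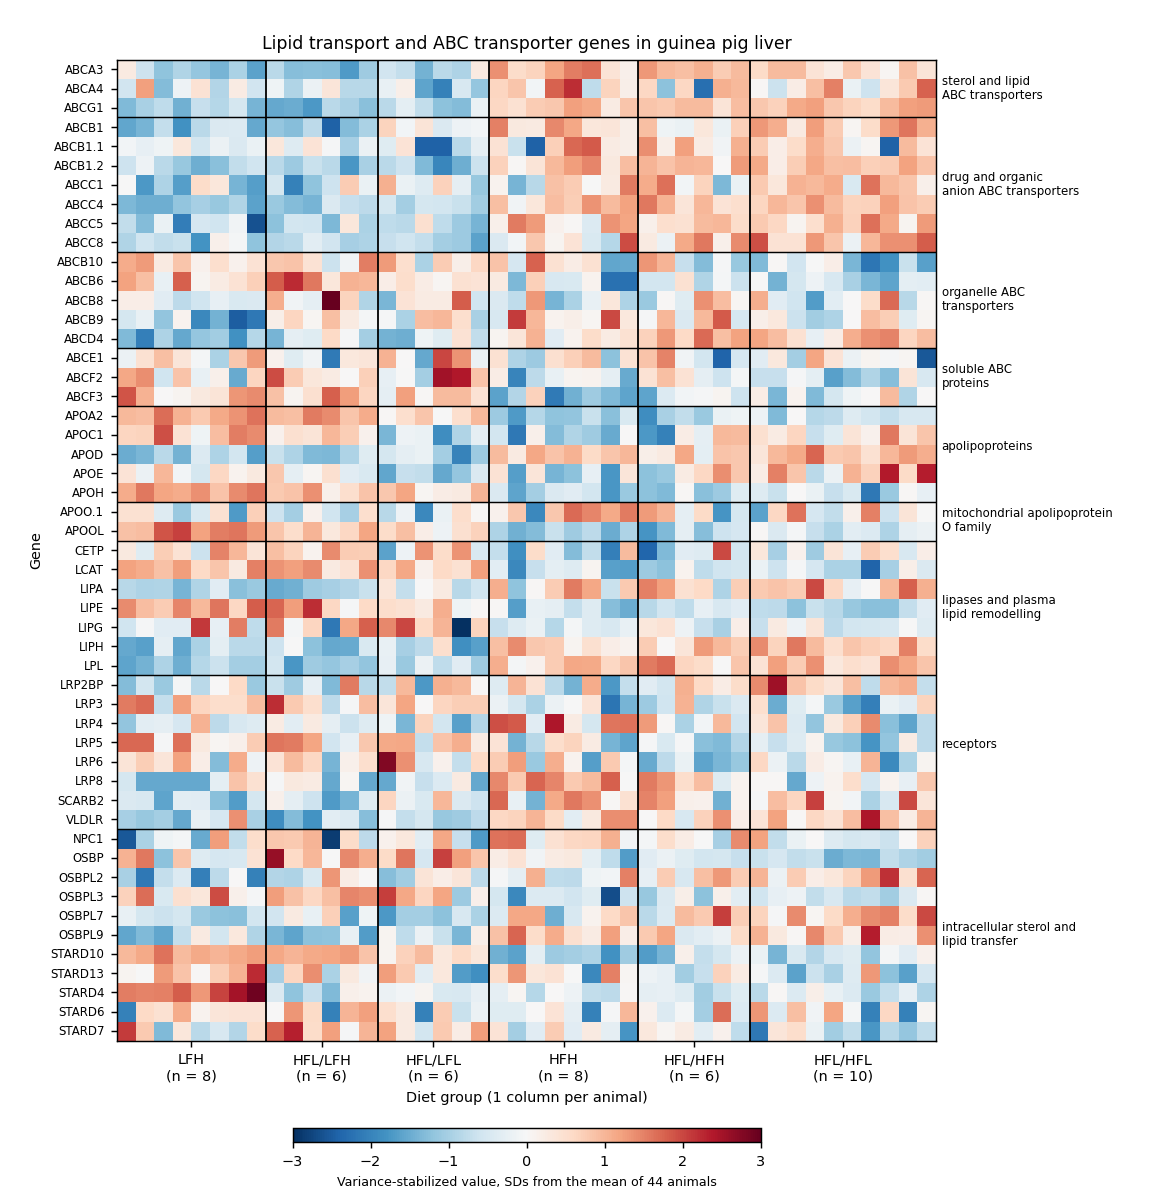
Each row is 1 of 51 of the 52 genes, grouped by role, and each column 1 of 44 animals, ordered by diet group. Colour gives the deposited variance-stabilized value in SDs from the gene's mean over all animals, limited to 3 SDs either way. The ABC transporters at the top are mostly blue in the 3 low fat groups on the left and red in the 3 high fat groups, APOA2, APOH and STARD10 run the other way, and STARD4 is red in LFH alone.

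In a principal component analysis of the 52 members, scaled to equal variance, the first component held 42.9% of the variance. Scores on it ran from -7.23 to -1.62 in the 20 animals on low fat feed and from 1.77 to 6.2 in the 24 animals on high fat feed. Within the low fat feed the mean score ± SD was -5.71 ± 1.41 for the 8 LFH, -5.2 ± 1.19 for the 6 HFL/LFH and -3.57 ± 1.08 for the 6 HFL/LFL animals, and the ranges of these groups overlapped.

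Most ABC transporters of sterols, other lipids, drugs and organic anions were lower on low fat feed. Of the 10 members in these classes 7, 7 and 8 were called lower, where 27.7%, 19.4% and 19.7% of all genes were, and 0 were called higher. ABCB1.1 and ABCC1 passed in no feed comparison and ABCA4 in 1. ABCG1 passes cholesterol from cells to high density lipoprotein (HDL). Its CPM was 33.7 to 70.6 in LFH (median 51.7), 26.4 to 55.1 in HFL/LFH (median 36.3) and 37.9 to 90.9 in HFL/LFL (median 57.5). In animals on high fat feed it was 124 to 267 in HFH (median 189.9), 143 to 221 in HFL/HFH (median 207) and 163 to 278 in HFL/HFL (median 207). All 20 low fat animals were below all 24 high fat animals, and the log2 fold changes were -1.95 (SE 0.18), -2.34 (SE 0.22) and -1.85 (SE 0.2), with edgeR adjusted p of 1.35e-11, 3.46e-11 and 1.59e-09. ABCA3, a phospholipid transporter known from lung surfactant, changed by -0.97 (SE 0.12), -1.14 (SE 0.14) and -0.64 (SE 0.12), with edgeR adjusted p of 6.97e-09, 1.27e-08 and 7.07e-05, with CPM of 124 to 252 against 231 to 410.4. ABCA4, the retinoid transporter of photoreceptors, had few counts (0.275 to 5 CPM over all animals) and was called only in the low vitC comparison (-1.11, SE 0.41, edgeR adjusted p = 0.0278).

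ABCC4, which exports bile acids and cyclic nucleotides across the basolateral membrane of hepatocytes, had the largest decrease of the 52 members in the lifelong comparison. CPM was 1.95 to 5.22 in LFH (median 3.29), 2.72 to 8.57 in HFL/LFH (median 5.01) and 4.49 to 7.97 in HFL/LFL (median 7.29). On the high fat feeds values were 12.2 to 44.7 in HFH (median 30.3), 19 to 53 in HFL/HFH (median 27.1) and 24.4 to 45 in HFL/HFL (median 29). No low fat animal reached the lowest high fat animal, and the log2 fold changes were -3.1 (SE 0.26), -2.53 (SE 0.29) and -2.24 (SE 0.27), with edgeR adjusted p of 4.36e-13, 4.23e-09 and 1.44e-08. ABCB1.2, the entry with the most counts of the 3 for P-glycoprotein, a pump for drugs and other lipophilic compounds, had CPM of 31.4 to 91.6 in LFH (median 54.8), 25.6 to 59.5 in HFL/LFH (median 50.2) and 21 to 61.8 in HFL/LFL (median 44.2). Against these stood 106 to 310.2 in HFH (median 189), 103 to 270.2 in HFL/HFH (median 219) and 119 to 255 in HFL/HFL (median 200.3). The feeds did not overlap, with log2 fold changes of -1.8 (SE 0.23), -2.11 (SE 0.27) and -2.19 (SE 0.25), with edgeR adjusted p of 1.42e-08, 3.34e-08 and 5.73e-09.

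The entry named ABCB1 had few counts. Its CPM was 0.105 to 1.24 in LFH (median 0.545), 0 to 0.792 in HFL/LFH (median 0.432) and 1.22 to 3.05 in HFL/LFL (median 1.69), and on high fat feed 2.16 to 5.49 in HFH (median 2.45), 1.53 to 3.7 in HFL/HFH (median 2.05) and 1.95 to 5.85 in HFL/HFL (median 4.2). LFH and HFL/LFH lay below every high fat animal, whereas HFL/LFL overlapped HFL/HFL. The log2 fold changes were -2.42 (SE 0.41), -2.41 (SE 0.48) and -0.99 (SE 0.41) with edgeR adjusted p of 3.89e-06, 9.63e-05 and 0.0494, so the call at low vitC was at the threshold. It was lost in 11 of 16 fits that left out 1 animal, with -0.89 (adjusted p = 0.112) without HFL/LFL animal 49. ABCB1 also missed the threshold there under RLE normalization (-0.98, adjusted p = 0.054) and with no filter on low counts (-1, adjusted p = 0.063). ABCB1.1 had CPM of 1.51 to 3.61 in LFH (median 2.21), 0.87 to 3.74 in HFL/LFH (median 2.41) and 0 to 3.8 in HFL/LFL (median 1.49). Its CPM was 0 to 10.4 in HFH (median 3.56), 2.46 to 7.74 in HFL/HFH (median 4.79) and 0 to 6.34 in HFL/HFL (median 4.08) on high fat feed, and all pairs overlapped. Its log2 fold changes of -0.99 (SE 0.64), -1.01 (SE 0.74) and -1.4 (SE 0.7) did not pass (edgeR adjusted p of 0.205, 0.302 and 0.11). At low vitC ABCB1.1 was called by limma on the variance-stabilized values (-0.82, adjusted p = 0.0361) and by edgeR without HFL/LFL animal 17 (-1.93, adjusted p = 0.0457).

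ABCC8, the sulfonylurea receptor of ATP-sensitive potassium channels, had CPM of 0.43 to 5.34 in LFH (median 2.37), 1.69 to 3.51 in HFL/LFH (median 2.04) and 0.648 to 2.64 in HFL/LFL (median 2). On high fat feed it was at 1.98 to 20.4 in HFH (median 4.76), 4.09 to 15.8 in HFL/HFH (median 8.91) and 4.1 to 20.1 in HFL/HFL (median 12). Both groups changed to low fat feed lay below their high fat partners, while LFH and HFH overlapped. ABCC8 changed by -1.37 (SE 0.41), -2.05 (SE 0.48) and -2.65 (SE 0.46), with edgeR adjusted p of 0.00451, 0.000636 and 1.53e-05. Without HFH animal 88, its highest value, the lifelong difference was -0.88 (adjusted p = 0.0496). The cyclic nucleotide exporter ABCC5 fell in all 3 comparisons, with log2 fold changes of -1.39, -1.06 and -1.25, although the groups overlapped (5.58 to 42.8 against 25.3 to 83.3 CPM). For ABCC1, an exporter of glutathione conjugates, the differences of -0.36 (SE 0.16), -0.36 (SE 0.18) and -0.28 (SE 0.17) did not pass (edgeR adjusted p of 0.0551, 0.129 and 0.179).

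ABC proteins of organelles and of the cytosol moved less, with no change as large as 1 on the log2 scale. ABCD4, which moves vitamin B12 out of lysosomes, had CPM of 40.3 to 54.1 in LFH (median 50), 47.9 to 80.2 in HFL/LFH (median 64.2) and 46.6 to 78.5 in HFL/LFL (median 60.7). The high fat groups had 63.1 to 92.1 in HFH (median 74.9), 82.3 to 109.7 in HFL/HFH (median 92.7) and 65.6 to 102 in HFL/HFL (median 89), without overlap in the lifelong and high vitC pairs. ABCD4 was called lower in all 3 comparisons, at -0.65 (SE 0.1), -0.56 (SE 0.12) and -0.54 (SE 0.11), with edgeR adjusted p of 1.91e-06, 0.000245 and 0.000136. ABCB6, a porphyrin transporter, rose by 0.39 (SE 0.11), 0.52 (SE 0.13) and 0.29 (SE 0.11), with edgeR adjusted p of 0.00354, 0.00115 and 0.0382. The mitochondrial transporter ABCB8 (0, 0.13 and 0.02) was not called, and ABCB10, which acts in haem synthesis, was called at low vitC alone (0.17, 0.21 and 0.51). ABCB9, a lysosomal peptide transporter, was lower in LFH than in HFH (-0.8, SE 0.17, edgeR adjusted p = 0.000189) and differed by -0.09 and 0.06 after the change. Of the ABC proteins without membrane domains, the ribosome recycling factor ABCE1 was called in no feed comparison (0.06, -0.04 and 0.12), ABCF2 at low vitC (0.25, 0.16 and 0.49) and ABCF3 in the lifelong and high vitC comparisons (0.4, 0.26 and 0.16).

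**Figure D2:**
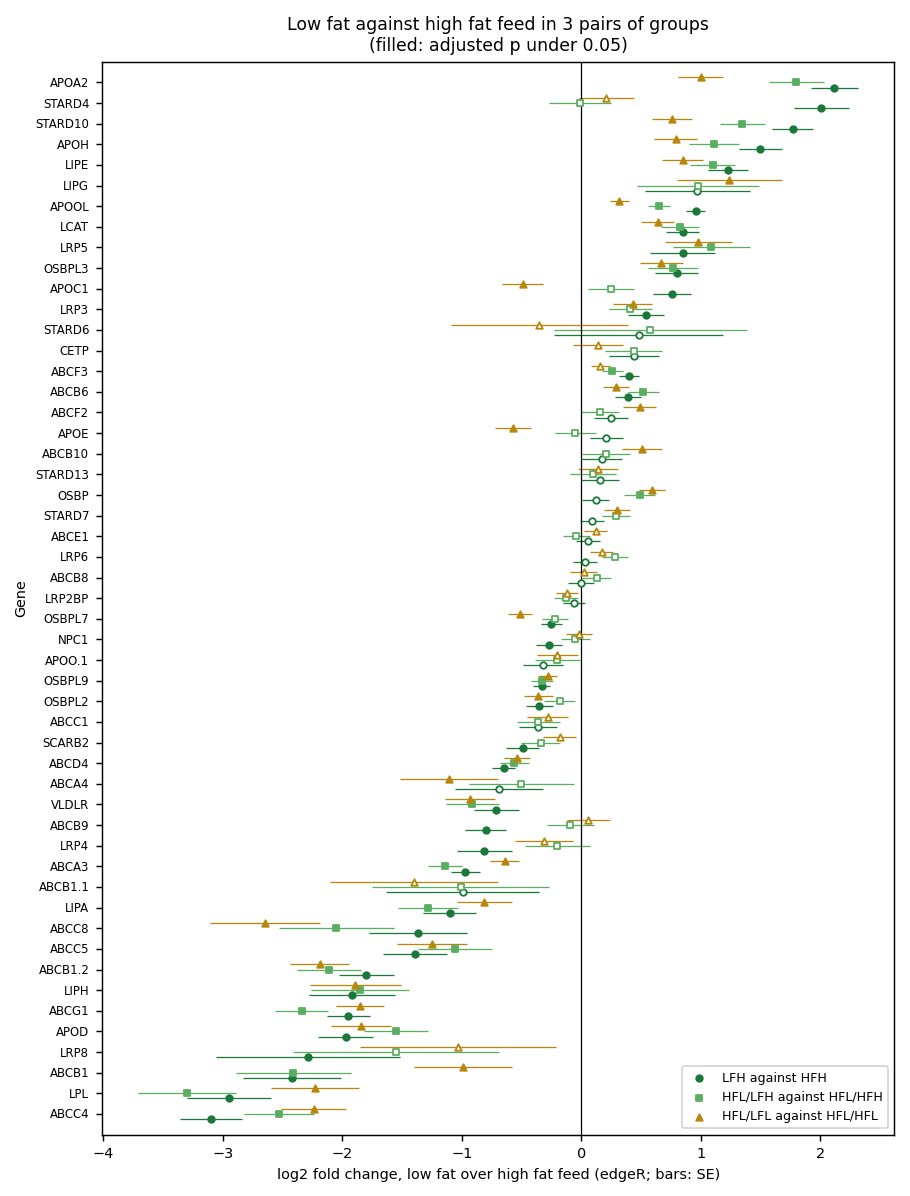
The log2 fold change of low fat over high fat feed (x axis, with SE as bars) is drawn for 51 of the 52 genes (y axis), sorted by the lifelong comparison, with a marker for each of 3 pairs of groups, filled where the adjusted p was under 0.05. ABCC4, LPL and ABCB1 stand at the low end and APOA2 at the high end, and STARD4 is at 2.01 in the lifelong comparison but at -0.01 and 0.21 after the change of feed.

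The apolipoproteins split by direction. APOA2, the second major protein of HDL, had CPM of 1331 to 2389.6 in LFH (median 1641), 1389 to 2223 in HFL/LFH (median 1590.0) and 799 to 1546 in HFL/LFL (median 1111). On high fat feed CPM was 258 to 602 in HFH (median 375), 231 to 733 in HFL/HFH (median 456) and 329 to 816 in HFL/HFL (median 569.6). LFH and HFL/LFH lay wholly above their high fat partners, and HFL/LFL overlapped HFL/HFL slightly. Its log2 fold changes were 2.12 (SE 0.2), 1.8 (SE 0.23) and 1 (SE 0.19) with edgeR adjusted p of 1.01e-11, 3.17e-08 and 7.11e-05. APOH, a phospholipid-binding plasma glycoprotein, had CPM of 4604 to 6712 in LFH (median 5683), 3270.0 to 5940.3 in HFL/LFH (median 4581) and 3164 to 5432 in HFL/LFL (median 4011). Its values on high fat feed were 1278 to 2609.9 in HFH (median 2122), 1615 to 3163 in HFL/HFH (median 1743) and 1094 to 3125 in HFL/HFL (median 2532). The partner groups did not overlap in any of the 3 comparisons, with log2 fold changes of 1.5 (SE 0.18), 1.11 (SE 0.21) and 0.79 (SE 0.18), with edgeR adjusted p of 3.73e-09, 3.2e-05 and 0.000472.

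APOD, a lipocalin that binds small hydrophobic molecules, went the other way. It had CPM of 81.3 to 205 in LFH (median 122), 103 to 213 in HFL/LFH (median 144) and 64.8 to 243 in HFL/LFL (median 159). In the high fat groups it was at 345 to 647 in HFH (median 531), 226 to 654 in HFL/HFH (median 425) and 371 to 988 in HFL/HFL (median 569). Partner groups again did not overlap, and the log2 fold changes were -1.97 (SE 0.23), -1.55 (SE 0.27) and -1.84 (SE 0.25), with edgeR adjusted p of 3.01e-09, 1.02e-05 and 2.1e-07.

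The entry given as APOC1, whose counts are also those of APOC2 and APOC4-APOC2, was called in opposite directions. CPM was 4337 to 7837 in LFH (median 5714), 4689 to 5963 in HFL/LFH (median 5179.7) and 2642 to 4292 in HFL/LFL (median 3857). In the high fat groups CPM was 2445 to 4775 in HFH (median 3416), 2527 to 6025 in HFL/HFH (median 4535) and 3722 to 7145 in HFL/HFL (median 5115). By median, LFH and HFL/LFH were the highest of the low fat groups and HFH the lowest of the high fat groups. LFH was above HFH by 0.76 (SE 0.16, edgeR adjusted p = 0.000153), HFL/LFH differed from HFL/HFH by 0.25 (SE 0.19, adjusted p = 0.318), and HFL/LFL was lower than HFL/HFL, at -0.49 (SE 0.17, adjusted p = 0.0195). The last call was lost without HFL/LFL animal 13 (-0.44, adjusted p = 0.0555) and without HFL/LFL animal 49 (-0.42, adjusted p = 0.0682). APOE, the ligand by which remnants bind to liver receptors, had CPM of 40993 to 54988 in LFH (median 47255), 41799 to 53954 in HFL/LFH (median 45235) and 33067 to 42474 in HFL/LFL (median 38266). On the high fat feeds its CPM was 31904 to 50050.4 in HFH (median 40117), 35806 to 60964 in HFL/HFH (median 50423) and 39479 to 73671 in HFL/HFL (median 54022). It was called at low vitC only, lower in HFL/LFL than in HFL/HFL with overlap, and its log2 fold changes were 0.21 (SE 0.14), -0.05 (SE 0.17) and -0.57 (SE 0.15), with edgeR adjusted p of 0.224, 0.837 and 0.00276. APOE did not pass at low vitC with limma on the variance-stabilized values (-0.54, adjusted p = 0.104).

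Proteins of the apolipoprotein O family, despite the name, belong to the inner mitochondrial membrane, and 1 of the 2 members was called. APOOL had CPM of 108 to 145 in LFH (median 120.3), 90 to 115 in HFL/LFH (median 102) and 81 to 106 in HFL/LFL (median 95.7). On high fat feed its CPM was 55 to 69.3 in HFH (median 63.9), 51.6 to 78.9 in HFL/HFH (median 65.4) and 64.8 to 85.4 in HFL/HFL (median 77.2). Its log2 fold changes were 0.96 (SE 0.08), 0.65 (SE 0.09) and 0.32 (SE 0.08), with edgeR adjusted p of 4.53e-13, 3.78e-07 and 0.00166, with overlap only between HFL/LFL and HFL/HFL. APOO.1 was called in none of the 3 (-0.32, -0.2 and -0.2).

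**Figure D3:**
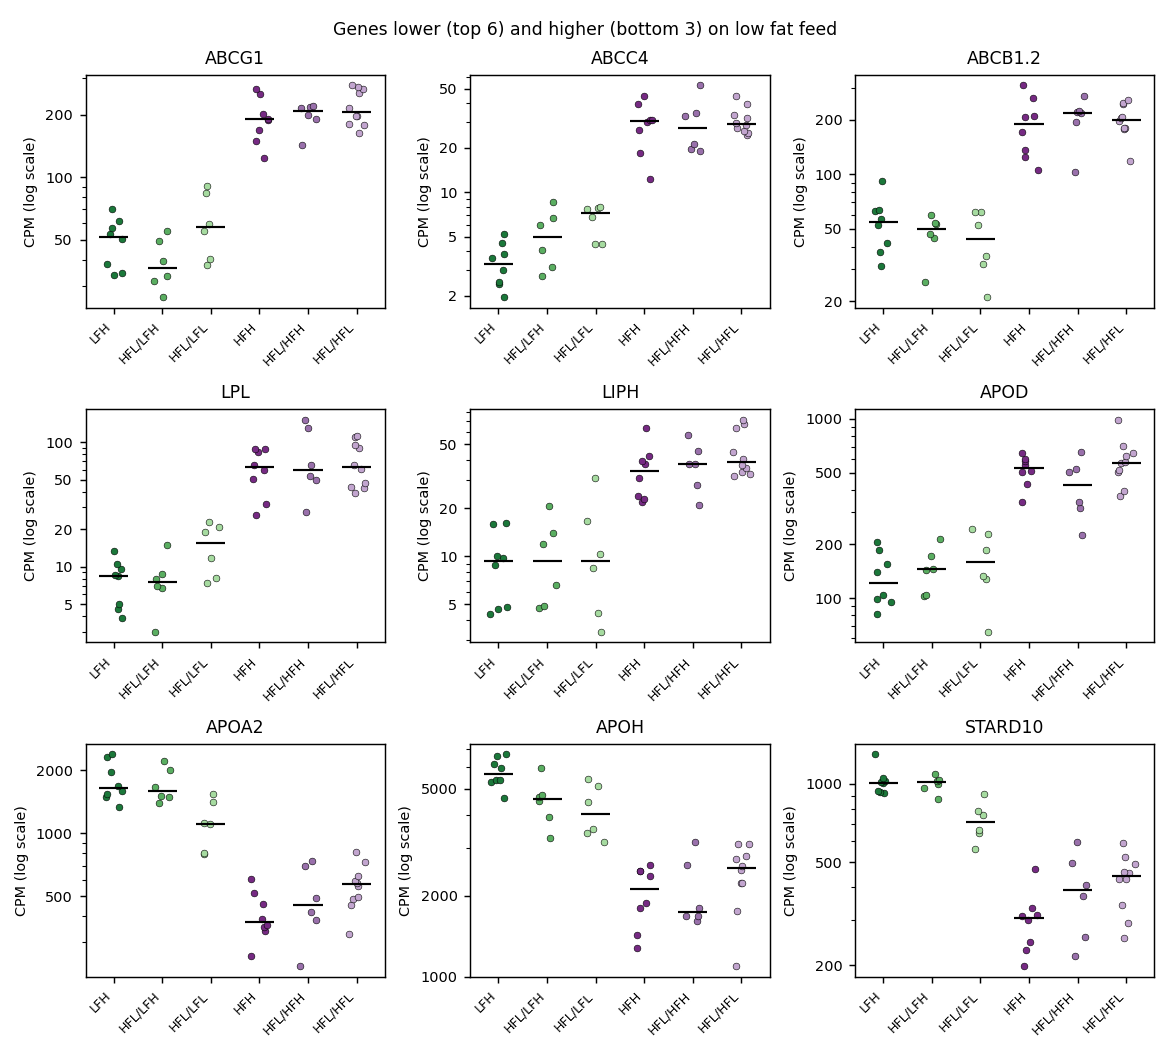
CPM on a log axis is plotted for 9 genes, with 1 point per animal, the 6 diet groups on the x axis and the group median as a bar. ABCG1, ABCC4, ABCB1.2, LPL, LIPH and APOD are lower in the 3 low fat groups (left) than in the 3 high fat groups (right), and APOA2, APOH and STARD10 are higher, with HFL/LFL the lowest of the low fat groups by median in these 3.

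Among the lipases, LPL, LIPH and LIPA fell and LIPE rose on low fat feed in all 3 comparisons. LPL, the lipase that releases fatty acids from triglyceride-rich lipoproteins, had CPM of 3.9 to 13.3 in LFH (median 8.46), 2.99 to 14.9 in HFL/LFH (median 7.47) and 7.4 to 22.9 in HFL/LFL (median 15.4). With high fat feed it was at 26 to 88.5 in HFH (median 62.9), 27.4 to 151 in HFL/HFH (median 59.6) and 38.7 to 112 in HFL/HFL (median 63.1). Every low fat animal was below every high fat animal. Its log2 fold changes of -2.95 (SE 0.35), -3.3 (SE 0.41) and -2.23 (SE 0.37), with edgeR adjusted p of 2.81e-09, 2.11e-08 and 5.88e-06, included the largest decrease among the members after the change of feed at high vitC. LIPH, which makes lysophosphatidic acid, had CPM of 4.36 to 16.1 in LFH (median 9.34), 4.77 to 20.8 in HFL/LFH (median 9.31) and 3.37 to 31 in HFL/LFL (median 9.41). With high fat feed it was at 22 to 63.5 in HFH (median 34.4), 21.1 to 57.5 in HFL/HFH (median 37.6) and 31.9 to 71.4 in HFL/HFL (median 39). Partner groups did not overlap, although the highest HFL/LFL animal came near the lowest HFL/HFL animal. LIPH changed by -1.92 (SE 0.36), -1.85 (SE 0.41) and -1.89 (SE 0.38), with edgeR adjusted p of 1.66e-05, 0.00036 and 0.000129.

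LIPA, the acid lipase that frees cholesterol from lipoproteins taken into lysosomes, had CPM of 84.5 to 139 in LFH (median 106), 79.5 to 119.8 in HFL/LFH (median 98.8) and 112 to 195 in HFL/LFL (median 147). Its CPM was 93.5 to 354 in HFH (median 243), 106 to 344 in HFL/HFH (median 232) and 149.8 to 436 in HFL/HFL (median 249.9) on high fat feed. The groups overlapped in all 3 pairs, with log2 fold changes of -1.1 (SE 0.22), -1.28 (SE 0.25) and -0.81 (SE 0.23), with edgeR adjusted p of 5.59e-05, 9.11e-05 and 0.00461. LIPE, hormone-sensitive lipase, had CPM of 21 to 34 in LFH (median 27.1), 15.7 to 40.6 in HFL/LFH (median 24.5) and 15 to 25.8 in HFL/LFL (median 18.6). Its CPM on high fat feed was 7.09 to 16.1 in HFH (median 12.4), 10.6 to 14.2 in HFL/HFH (median 12.4) and 8.64 to 13.7 in HFL/HFL (median 11). Partner groups did not overlap. LIPE rose by 1.23 (SE 0.17), 1.1 (SE 0.19) and 0.85 (SE 0.17), with edgeR adjusted p of 5.03e-08, 1.26e-05 and 8.25e-05.

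Endothelial lipase, LIPG, varied widely within the low fat groups. CPM was 24.5 to 188 in LFH (median 35.1), 7.91 to 152 in HFL/LFH (median 83.4) and 3.37 to 174 in HFL/LFL (median 80.4). In the high fat groups it was 22.9 to 42.2 in HFH (median 33.3), 21.3 to 59.8 in HFL/HFH (median 45.1) and 25 to 57.4 in HFL/HFL (median 31.9). Both the highest and the lowest of all 44 animals were on low fat feed, and the SD was 93.3% of the mean in LFH and 19.5% in HFH. LIPG was called at low vitC (1.24, SE 0.44, edgeR adjusted p = 0.0247) but not without HFL/LFL animal 17 (0.92, adjusted p = 0.122) or animal 13 (1.13, adjusted p = 0.0574), and not with limma on the variance-stabilized values (0.72, adjusted p = 0.225). The other comparisons gave 0.97 (SE 0.44) and 0.98 (SE 0.51), with edgeR adjusted p of 0.0662 and 0.136. The lifelong difference was 0.51 without LFH animal 56 and passed without LFH animal 5 (1.08, adjusted p = 0.0458) or animal 92 (1.09, adjusted p = 0.0433) and in the fit of these groups alone (0.98, adjusted p = 0.04). At high vitC LIPG passed without HFL/LFH animal 33 (1.22, adjusted p = 0.0436).

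Of the plasma enzymes, LCAT, which esterifies cholesterol on HDL, had CPM of 664 to 989 in LFH (median 849.8), 658 to 968 in HFL/LFH (median 952) and 636 to 928 in HFL/LFL (median 741). High fat groups had 316 to 631 in HFH (median 509), 401 to 635 in HFL/HFH (median 484) and 271 to 645 in HFL/HFL (median 504). LCAT was higher without overlap in LFH and HFL/LFH, overlapped between HFL/LFL and HFL/HFL, and rose by 0.85 (SE 0.14), 0.83 (SE 0.16) and 0.64 (SE 0.14), with edgeR adjusted p of 3.46e-06, 9e-05 and 0.00044. CETP, which exchanges cholesteryl ester and triglyceride between lipoproteins, had CPM of 402 to 777 in LFH (median 556), 505 to 757 in HFL/LFH (median 624) and 293 to 759 in HFL/LFL (median 527). Beside these were 256 to 673 in HFH (median 394), 233 to 924 in HFL/HFH (median 428) and 359 to 636 in HFL/HFL (median 525.7). The groups overlapped broadly, and the differences of 0.44 (SE 0.21), 0.44 (SE 0.24) and 0.14 (SE 0.21) did not pass (edgeR adjusted p of 0.0698, 0.149 and 0.647). Limma on the variance-stabilized values did call CETP in LFH against HFH (0.49, adjusted p = 0.0364) and in HFL/LFH against HFL/HFH (0.57, adjusted p = 0.0493), as did edgeR for the latter without HFL/HFH animal 30 (0.76, adjusted p = 0.00655). EdgeR also called the lifelong difference of CETP without HFH animal 9 (0.53, adjusted p = 0.0351), HFH animal 88 (0.57, adjusted p = 0.0199) or LFH animal 56 (0.5, adjusted p = 0.0447).

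Among the receptors, VLDLR, which binds apolipoprotein E on triglyceride-rich particles, was lower on low fat feed and LRP5, a co-receptor of WNT signals, higher. VLDLR had CPM of 27.7 to 88.4 in LFH (median 34.5), 24.1 to 45 in HFL/LFH (median 30.9) and 32.8 to 50.2 in HFL/LFL (median 38.2). On high fat feed the values were 45.7 to 90.5 in HFH (median 66.8), 43.2 to 88.9 in HFL/HFH (median 61.1) and 52.9 to 135 in HFL/HFL (median 69.9). Only HFL/LFL and HFL/HFL did not overlap, and the log2 fold changes were -0.71 (SE 0.19), -0.91 (SE 0.22) and -0.93 (SE 0.21), with edgeR adjusted p of 0.0021, 0.00124 and 0.000403. LRP5 had CPM of 361 to 906 in LFH (median 484), 274 to 849 in HFL/LFH (median 618) and 259.9 to 663 in HFL/LFL (median 613). High fat animals had 167 to 524 in HFH (median 336), 190.0 to 369 in HFL/HFH (median 268) and 152 to 422 in HFL/HFL (median 256). All pairs overlapped, with log2 fold changes of 0.85 (SE 0.27), 1.09 (SE 0.32) and 0.98 (SE 0.28), with edgeR adjusted p of 0.00923, 0.00584 and 0.00439.

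The other receptors had fewer calls. LRP3 was higher in LFH and in HFL/LFL than in their partners (0.54, 0.41 and 0.43, not passing at high vitC). LRP4, a receptor for agrin, was called lower in the lifelong comparison alone (-0.81, -0.2 and -0.31), and so was the lysosomal membrane protein SCARB2 (-0.49, -0.34 and -0.18). LRP8, the reelin receptor, was likewise called once, at -2.29 (SE 0.77, edgeR adjusted p = 0.0119), but its level was 0 to 0.745 CPM in LFH and 0.3 to 1.45 CPM in HFH, close to the floor. LRP6 (0.03, 0.28 and 0.17) was called in none of the 3. Neither was LRP2BP (-0.06, -0.13 and -0.12), which is a binding protein of LRP2 and no receptor itself.

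Of the 11 proteins that carry sterols and lipids inside the cell, STARD10, a phospholipid transfer protein of hepatocytes, rose in every feed comparison. It had CPM of 919 to 1299 in LFH (median 1009), 870.4 to 1091 in HFL/LFH (median 1012) and 559.5 to 912 in HFL/LFL (median 709.8). High fat feed gave 198 to 470.5 in HFH (median 304), 218 to 599 in HFL/HFH (median 389.9) and 254 to 592 in HFL/HFL (median 442). LFH and HFL/LFH were wholly above HFH and HFL/HFH, whereas HFL/LFL overlapped HFL/HFL. The log2 fold changes were 1.77 (SE 0.17), 1.35 (SE 0.19) and 0.76 (SE 0.17), with edgeR adjusted p of 2.1e-11, 4.45e-07 and 0.000404. OSBPL3, an oxysterol-binding protein homologue at membrane contact sites, rose by 0.8 (SE 0.18), 0.77 (SE 0.21) and 0.67 (SE 0.18), with edgeR adjusted p of 0.000299, 0.00348 and 0.00348. Its CPM was 15.1 to 35.2 in LFH (median 20.9), 22.4 to 30.3 in HFL/LFH (median 26.7) and 12.2 to 36.4 in HFL/LFL (median 24.9). With high fat feed OSBPL3 was at 6.15 to 16.1 in HFH (median 14.8), 11.5 to 19.5 in HFL/HFH (median 16) and 12.2 to 18.4 in HFL/HFL (median 15), and only HFL/LFH and HFL/HFH did not overlap.

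OSBP, which exchanges cholesterol for a phosphoinositide between the endoplasmic reticulum and the Golgi, had CPM of 147 to 273 in LFH (median 192), 190.0 to 336 in HFL/LFH (median 239) and 175 to 299 in HFL/LFL (median 242). On high fat feed OSBP was at 138 to 214 in HFH (median 196), 168 to 188 in HFL/HFH (median 177) and 144 to 174 in HFL/HFL (median 162). The groups after a change of feed did not overlap their partners, while LFH and HFH had nearly the same median. Its log2 fold changes were 0.12 (SE 0.11), 0.49 (SE 0.13) and 0.59 (SE 0.11), with edgeR adjusted p of 0.396, 0.00203 and 5.37e-05. NPC1, which exports cholesterol from lysosomes, had CPM of 55.1 to 97.5 in LFH (median 75.5), 51.2 to 94.1 in HFL/LFH (median 90.5) and 62.8 to 97.8 in HFL/LFL (median 79.4). NPC1 was at 77.2 to 106 in HFH (median 90.1), 69.9 to 102 in HFL/HFH (median 83.3) and 72.5 to 98.7 in HFL/HFL (median 78.6) on high fat feed, and all pairs overlapped. It was called only in the lifelong comparison, with log2 fold changes of -0.27 (SE 0.11), -0.05 (SE 0.12) and -0.02 (SE 0.11), with edgeR adjusted p of 0.035, 0.808 and 0.89. That call was lost in 7 of 16 fits without 1 animal, with -0.21 (adjusted p = 0.0959) without LFH animal 5, and in the fit of LFH and HFH alone (-0.25, adjusted p = 0.0656). OSBPL9 was lower on low fat feed in all 3 comparisons (-0.33, -0.33 and -0.28), and OSBPL2 (-0.35, -0.18 and -0.36) and OSBPL7 (-0.25, -0.22 and -0.51) were lower in the lifelong and low vitC comparisons. STARD7, which carries phosphatidylcholine to mitochondria, was called at low vitC alone (0.09, 0.29 and 0.3). STARD6 (0.48, 0.58 and -0.35) and STARD13 (0.16, 0.1 and 0.14) were called in none.

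STARD4 was the member whose level separated the lifelong low fat animals from all others. It carries cholesterol between the plasma membrane and the endoplasmic reticulum and is a known target of sterol regulatory element binding protein. CPM in LFH was 18.4 to 44.5, with a median of 23.1. The other low fat groups were at 2.83 to 9.07 in HFL/LFH (median 5.47) and 5.87 to 8.72 in HFL/LFL (median 7.05), and the high fat groups at 4.34 to 8.66 in HFH (median 7.03), 3.74 to 6.9 in HFL/HFH (median 6.34) and 3.55 to 9.23 in HFL/HFL (median 6.21). No animal of the other 5 groups reached the lowest LFH animal, and these 5 groups overlapped each other. STARD4 was higher in LFH than in HFH by 2.01 (SE 0.23, edgeR adjusted p = 7.93e-10), and differed by -0.01 (SE 0.26, adjusted p = 0.983) and 0.21 (SE 0.23, adjusted p = 0.501) after the change. HFL/LFH was lower than LFH, at -2.2 (SE 0.25, adjusted p = 4.89e-07), the smallest p of the 7750 genes in that comparison. The difference between the feed effects was itself tested after these values had been seen. It was 2.02 (SE 0.34, adjusted p = 0.00165) at high vitC, where 0.103% of all genes were called, and 1.81 (SE 0.32, adjusted p = 0.00102) at low vitC, where 5.91% were.

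All members were also compared between the changed low fat groups and LFH, 16 weeks after the change. HFL/LFH and LFH had the same feed and vitC level in that period, whereas HFL/LFL and LFH also differed in vitC, which cannot be told apart from the earlier feed. At high vitC, STARD4 was the 1 member called between HFL/LFH and LFH, where 0.361% of all genes were called, and 9 members had an unadjusted p under 0.05, as did 10.4% of all genes. Of the cell type markers, 2 of 8 macrophage markers were called higher in HFL/LFH. At low vitC, 6 members (11.5%) were called between HFL/LFL and LFH, 2 higher and 4 lower, where 7.91% of all genes were (4.43% higher and 3.48% lower). Between HFL/LFL and LFH 4 of 8 macrophage, 2 of 4 neutrophil, 2 of 4 B cell, 1 of 6 T cell and 1 of 3 cholangiocyte markers were called higher in HFL/LFL, and the markers' part in the members' values was not tested. ABCB1 (1.66, SE 0.43, edgeR adjusted p = 0.0124) and ABCC4 (0.96, SE 0.26, 0.0191) were higher in HFL/LFL. STARD4 (-1.92, SE 0.25, 1.83e-06), APOC1 (-0.72, SE 0.18, 0.00958), APOOL (-0.37, SE 0.09, 0.00609) and APOA2 (-0.66, SE 0.21, 0.0409) were lower in HFL/LFL. For STARD4, APOC1 and APOOL, and for STARD10, which missed the threshold (-0.5, SE 0.18, adjusted p = 0.0758), all 6 HFL/LFL animals were below all 8 LFH animals, and 1.39% of all genes did not overlap. The APOA2 call was lost in 7 of 14 fits without 1 animal, with -0.58 without HFL/LFL animal 13 (adjusted p = 0.0888) and without animal 49 (adjusted p = 0.129). ABCC4 did not pass without HFL/LFL animal 44 or animal 49 (0.89 and 0.9, adjusted p = 0.05 and 0.0578) or with limma on the variance-stabilized values (0.6, adjusted p = 0.0583), APOA2 did not pass with no filter on low counts (-0.66, adjusted p = 0.0521), and ABCB1 did not pass in the fit of these 2 groups alone (1.65, adjusted p = 0.077). DESeq2 called LIPE lower in HFL/LFL than in LFH (-0.52, adjusted p = 0.0442).

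The feed effect at low vitC was smaller than the lifelong feed effect for APOA2 by 1.13 (SE 0.28, adjusted p = 0.0127), for STARD10 by 1.01 (SE 0.24, adjusted p = 0.0102) and for APOOL by 0.64 (SE 0.12, adjusted p = 0.00116), in the contrast that was added after seeing the data. For APOC1 the feed effects differed by 1.25 (SE 0.24, adjusted p = 0.00168), for APOE by 0.78 (SE 0.21, adjusted p = 0.0189) and for ABCB9 by -0.86 (SE 0.25, adjusted p = 0.0294). With STARD4 these are 7 of 52 members, where 5.91% of all genes were called, and at high vitC STARD4 was the 1 member called, where 0.103% were. In the low vitC contrast the vitC level and the earlier feed change together and cannot be told apart, since LFH and HFH had high vitC throughout.

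**Figure D4:**
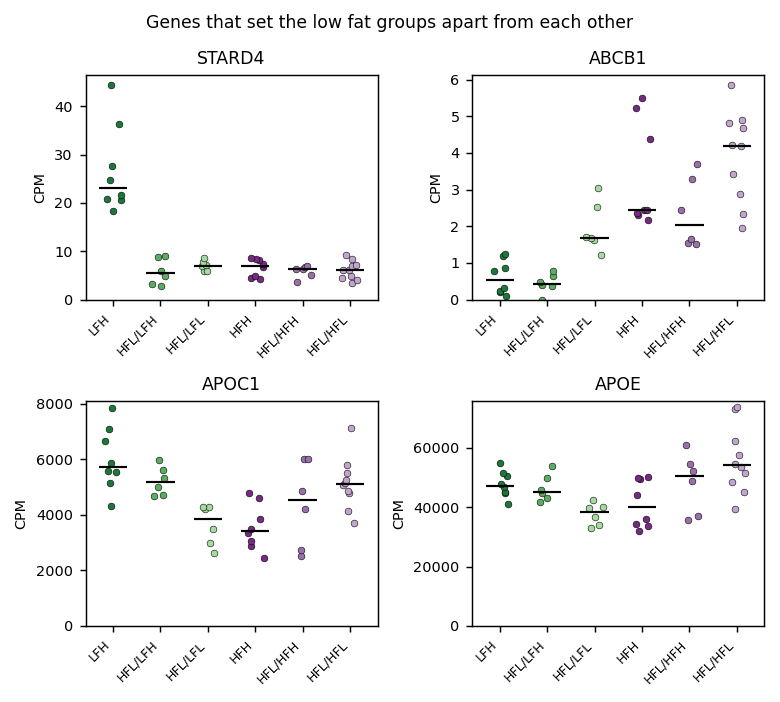
CPM on a linear axis from 0 is plotted for 4 genes, with 1 point per animal, the 6 diet groups on the x axis and the group median as a bar. STARD4 is at 18.4 or more in each LFH animal and at 9.23 or less in every animal of the other 5 groups, ABCB1 in HFL/LFL lies above HFL/LFH, and APOC1 and APOE in HFL/LFL lie at or below the levels of the other low fat groups.

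VitC was compared on 1 feed at a time to ask whether these genes differed with its level in the second period. Between HFL/LFL and HFL/LFH, 1 member was called (1.92%), where 0.219% of all genes were, and 10 members had an unadjusted p under 0.05, as did 11% of all genes. The member was ABCB1, at 1.22 to 3.05 CPM in HFL/LFL and 0 to 0.792 CPM in HFL/LFH without overlap (2.15, SE 0.48, edgeR adjusted p = 0.0378). In the fit of these 2 groups alone its adjusted p was 0.3, and the call was also lost without HFL/LFL animal 13 (1.98, adjusted p = 0.0585) or 68 (2.19, 0.0777) and without HFL/LFH animal 3 (2.17, 0.0718), 4 (2.12, 0.138) or 33 (1.89, 0.0679). ABCB1.2, with many more counts, differed by -0.1 (SE 0.26) between these groups (edgeR adjusted p = 0.947). The 9 members under an unadjusted 0.05 that were not called were ABCG1 (0.64), LPL (0.89), LIPA (0.62) and ABCA3 (0.29) with positive differences, and APOA2 (-0.6), APOC1 (-0.52), LIPE (-0.48), STARD10 (-0.47) and ABCB6 (-0.33) with negative ones, each with an edgeR adjusted p of 0.171 or more. Of these, APOC1 did not overlap between the groups, as was the case for 0.503% of all genes.

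On high fat feed, edgeR called 0 members between HFL/HFL and HFL/HFH, where 0.0129% of all genes were called. DESeq2 also called 0, and 1 member, APOOL, had an unadjusted p under 0.05 (0.21, SE 0.08, edgeR adjusted p = 1), where 3.37% of all genes did. The interaction of vitC and feed in these 4 groups called 0 of 52 members and 0% of all genes in edgeR, 0 members in DESeq2, and had 8 members under an unadjusted 0.05, as were 8.23% of all genes. The smallest of these p was that of APOC1 (-0.74, SE 0.25, adjusted p = 0.428). For ABCB1 the interaction was 1.42 (SE 0.61, adjusted p = 0.5), which did not pass.

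The high fat groups were compared over their vitC histories as well. The paper reports that HFH took in more energy than HFL in the first period and had the highest body weight in the second. Energy intake and vitC history therefore cannot be told apart in the comparisons with HFH. Between HFL/HFL and HFH, edgeR called 0 members (0.271% of all genes), 16 had an unadjusted p under 0.05 (17.3% of all genes did), and DESeq2 called 3. The 3 were APOE (0.44, SE 0.14 in edgeR, adjusted p = 0.113, 0.0203 in DESeq2), APOC1 (0.53, SE 0.16, 0.0948, 0.0351) and APOOL (0.27, SE 0.08, 0.0868, 0.0448), all higher in HFL/HFL. Without HFH animal 9 or 88, edgeR called 2 members, among them APOC1 (0.61, adjusted p = 0.0443, and 0.6, adjusted p = 0.0419). Between HFL/HFH and HFH, edgeR called 0 members and 0% of all genes, DESeq2 called 0 members, and 4 had an unadjusted p under 0.05 (ABCD4, LRP4, LRP6 and STARD10), each with an adjusted p of 0.827, where 6.01% of all genes had such an unadjusted p.

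Other genes of the pathway were taken from a list of 39 lipoprotein regulators and receptors outside the families, of which 19 were tested. Of these 7 were higher and 5 lower in LFH than in HFH, 6 higher and 4 lower after the change at high vitC, and 3 higher and 5 lower at low vitC. These were 12, 10 and 8 of 19, where 49.3%, 35.9% and 37.8% of all genes were called. Those called in all 3 feed comparisons included NR1H3 and PCSK6, which were higher on low fat feed, and SORT1, MSR1, GPBAR1 and GPIHBP1, which were lower.

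NR1H3, the sterol-sensing nuclear receptor that controls ABCG1 among others, was at 322 to 549.8 CPM over the 3 low fat groups and 66.5 to 208 CPM over the 3 high fat groups, a log2 fold change of 1.7, 1.63 and 1.36. Its direction was opposite to that of ABCG1, and whether NR1H3 had a part in the ABCG1 values was not tested. SORT1, a sorting receptor for apolipoprotein B and LPL, was at 17.6 to 45.3 CPM on low fat and 53.9 to 95.1 CPM on high fat feed (-1.24, -1.16 and -0.95). PCSK6, a proprotein convertase, rose by 1.52, 1.88 and 1.93, and GPIHBP1, the capillary anchor of LPL, changed by -2.2, -2.21 and -2.4 at a low level, with no animal above 14 CPM. The macrophage scavenger receptor MSR1 changed by -0.89, -1.06 and -0.75 and the bile acid receptor GPBAR1 by -0.72, -1.26 and -0.8.

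Animals on the same diet varied among themselves. The coefficient of variation (SD over mean of the CPM, median of the 6 groups) had a median of 23% over the members and 23.4% over all genes tested. It was lowest for OSBPL9 (9.1%), APOOL (9.25%) and ABCF3 (9.67%), and highest for LRP8 (72.2%), STARD6 (69.7%) and LIPG (51.1%). LRP8 stayed at 1.45 CPM or less and STARD6 at 0.959 CPM or less in every animal, whereas LIPG reached 188 CPM.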

How the data were processed

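Liver RNA was sequenced in the 44 animals, 1 library each. Per the labels, the authors used bcl2fastq 2.19, Trimmomatic 0.38.0, HISAT2 2.1.0 and StringTie 2.1.1, and assigned human symbols to guinea pig genes. The authors deposited whole-number counts per symbol, not normalized, and variance-stabilized log2 values made with DESeq2. How StringTie output became counts, and whether counting used strand, is not stated. Both tables were used in full, with 0 columns left out.

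The members, gene lists and comparisons were chosen with earlier results of these data known. In R 4.3.3, counts were fitted with edgeR 4.0.16 (TMM, quasi-likelihood F test, 1 mean per group, all animals) over 7750 symbols (summed count of 200 or more). P-values were two-sided and adjusted by Benjamini-Hochberg over all of them, with 0.05 as threshold, and measure the spread between animals. The labels name no batch. Within groups, all 146 pairs of animals differed by more than sampling noise (chi-square per gene of 52.1 to 624). Full values are given for 27 members named by a rule: a set fixed by role, up to 5 members per direction with the largest change in each feed comparison (at least 1 CPM), and the members called, or with the smallest p, elsewhere. The remaining members are described by their fold changes, except 1 member that enters the counts but is not reported here by name or drawn. Alternatives were RLE normalization, no count filter, DESeq2 1.42.0, limma 3.58.1 on the deposited log2 values, only the groups compared, and leaving out each animal. The contrasts between feed effects were added after seeing the data. On simulated counts for LFH against HFH, with 200 of 7750 genes changed by 1 on the log2 scale, edgeR recovered 71.5% with 8 false calls, DESeq2 78.5% with 14 and limma 70.5% with 7.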

Additional observations from a re-analysis of the deposited data

Results flagged for a closer look

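In 312 groups of CPM values (52 members in 6 diet groups), 18 values, from 13 animals, stood farther from the rest of their group than Dixon's test allows, where chance flags about 15.6, or 1 in 20 groups. In LFH these were ABCA3 at 252 in animal 5 (highest, next 184), ABCB1.1 at 3.61 in animal 46 (highest, next 2.49), LRP4 at 10.2 in animal 56 (highest, next 6.41), STARD10 at 1299 in animal 27 (highest, next 1048) and VLDLR at 88.4 in animal 79 (highest, next 47). In HFH these were ABCC8 at 20.4 in animal 88 (highest, next 9.18) and ABCF3 at 151 in animal 9 (highest, next 121). In HFL/HFL these were STARD13 at 58.9 in animal 75 (highest, next 42.1) and VLDLR at 135 in animal 75 (highest, next 83.2). In HFL/HFH these were ABCG1 at 143 in animal 30 (lowest, next 192), CETP at 924 in animal 30 (highest, next 450.0), LRP3 at 119.9 in animal 20 (highest, next 80.7) and STARD6 at 0.959 in animal 30 (highest, next 0.308). In HFL/LFL this was ABCC5 at 42.8 in animal 44 (highest, next 20.5). In HFL/LFH these were ABCB8 at 301 in animal 33 (highest, next 209.6), ABCE1 at 45.2 in animal 33 (lowest, next 59.4), LRP2BP at 70.4 in animal 43 (highest, next 55.4) and OSBPL9 at 65.9 in animal 43 (highest, next 55.9). HFL/HFH animal 30 was flagged for 3 members, and HFL/LFH animals 33 and 43 and HFL/HFL animal 75 for 2 each.

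In the tests chosen after seeing the data, the lifelong effect of low fat feed differed from the effect after the change at high vitC for STARD4 (2.02, SE 0.34, edgeR adjusted p = 0.00165). At low vitC it differed for STARD4 (1.81), APOC1 (1.25), APOA2 (1.13), STARD10 (1.01), APOE (0.78), APOOL (0.64) and ABCB9 (-0.86), with edgeR adjusted p between 0.00102 and 0.0294, each value the lifelong log2 fold change minus the later one.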

How the results depend on the processing

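No paired analysis was possible because no animal was in more than 1 group and the animal numbers are not repeated between groups. Over the alternatives that kept all animals, the counts of members called were 34 to 35 between LFH and HFH, 25 to 28 between HFL/LFH and HFL/HFH and 32 to 34 between HFL/LFL and HFL/HFL. Leaving out 1 animal gave 33 to 36, 25 to 28 and 29 to 34, and 21 to 25 members called in all 3. The count between HFL/LFL and HFL/LFH was 1 under RLE normalization, no filter, DESeq2 and limma, 0 in the fit of the groups compared alone, and 0 to 1 without 1 animal. Between HFL/HFL and HFH DESeq2 gave 3 and leaving out 1 animal 0 to 2. Between HFL/LFL and LFH DESeq2 gave 9, where edgeR gave 6, and leaving out 1 animal 4 to 7. It gave 1 to 1 between HFL/LFH and LFH, and 0 to 0 between HFL/HFL and HFL/HFH, between HFL/HFH and HFH and for the interaction. The cause of these shifts was not tested. Of 1055 refitted values for the named members, 1038 kept their direction and side of the threshold, 9 fell below it, 8 passed it and 0 reversed a call. Besides the members for which such animals are named above, calls lost without 1 animal were those of OSBPL7 between LFH and HFH (without HFH animal 6, -0.22, edgeR adjusted p = 0.0584, or animal 9, -0.22, 0.0557) and of ABCF3 between HFL/LFH and HFL/HFH (without HFL/HFH animal 15, 0.22, 0.0752, or HFL/LFH animal 33, 0.23, 0.0598). Between HFL/LFL and HFL/HFL they were those of ABCA4 (5 of 16 fits, -0.93 without HFL/LFL animal 49), ABCB6 (7 fits, 0.26 without HFL/HFL animal 81), LRP3 (6 fits, 0.38 without HFL/LFL animal 17), STARD7 (2 fits, 0.26 without HFL/LFL animal 68), ABCB10 and OSBPL2 (1 fit each, 0.44 and -0.3 without HFL/LFL animal 13).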
